A study of Mus musculus with 35 samples.

Results

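Both arginase genes of the mouse, Arg1 and Arg2, and 4 genes that are often read as signs of the activation state of macrophages, Chil3, Retnla, Nos2 and Acod1, were followed over 35 arrays of sorted immune cells. They were chosen by symbol, not by level, and are 6 of the 18193 genes that the array measured with at least 1 probe set of a single symbol. Together they had 7 probe sets of their own, 2 of them for Arg2, and 1 further probe set that Chil3 shares with its neighbour Chil4. The study sorted innate immune cells from male C57BL/6J mice aged 8 weeks and hybridised total RNA of each sort to an Affymetrix array. No agent and no engineered allele is named in the labels for any group. Its centre is SatM (atypical monocytes with a segregated nucleus, linked to fibrosis in the labels) and its named progenitor SMP.

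A lineage set held 20 arrays. From bone marrow came SatM (2 arrays), inflammatory monocytes (2), SMP (4), the common monocyte progenitor cMoP (4), the granulocyte-monocyte progenitor GMP (1) and the monocyte and dendritic cell progenitor MDP (1). Of the SMP and of the cMoP arrays, 2 each carry WT in their titles and 2 each carry only a number. From spleen came basophils, eosinophils and neutrophils (2 arrays each). A tissue panel held 15 arrays, 1 for each sort and tissue except for lung macrophages, which had 2. It consisted of M2-like tissue-resident macrophages of spleen and bone marrow, lung macrophages, other Ly6C- cells of spleen and blood, SatM of spleen, bone marrow, blood and lung, Msr1-Ceacam1- cells (lacking both surface markers used to sort SatM) of spleen, bone marrow and blood, and Msr1dull Ceacam1dull cells of bone marrow and lung. All lung arrays carry BAL, for lung lavage, in their titles. The 2 lung macrophage arrays are titled MP_BAL and F480 posi_BAL. They may thus be different sorts, and they were grouped here as 1. The labels do not say whether arrays of a group came from separate animals, so the tests measure the spread between these arrays only.

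As background, arginases split the amino acid arginine into ornithine and urea. Arg1 makes the cytosolic enzyme and is a classic product of macrophages exposed to interleukin 4 or 13, and Arg2 makes the mitochondrial enzyme. Nos2, the inducible nitric oxide synthase, draws on the same arginine and marks macrophages exposed to interferon gamma and microbial products. Chil3 (Ym1, a secreted chitinase-like protein) and Retnla (Fizz1, a secreted resistin-like protein) are read in the mouse as signs of a type 2 response, although neutrophils and eosinophils are known to make such proteins as well. Acod1 makes the mitochondrial enzyme that turns cis-aconitate, a step of the citric acid cycle, into itaconate, and is known as a gene that macrophages switch on after contact with microbial products.

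Promoter sequences from RefSeq (build GRCm38.p6) were matched for 3 of the 6 genes, Chil3, Retnla and Acod1, and for Chil4. The 200 bases before each start are shown, because Chil3 and Chil4 are near copies that 1 probe set cannot separate, and because Chil3, Retnla and Acod1 were each called in more than 1 of the comparisons described here. The Chil3 stretch is chr3:106167565-106167764 on the minus strand, that of Chil4 chr3:106219480-106219679 on the minus strand, that of Retnla chr16:48842409-48842608 on the plus strand and that of Acod1 chr14:103046812-103047011 on the plus strand. Each is written 5′ to 3′ in the direction of transcription, and capitals mark matches to the motifs given after them.
Chil3: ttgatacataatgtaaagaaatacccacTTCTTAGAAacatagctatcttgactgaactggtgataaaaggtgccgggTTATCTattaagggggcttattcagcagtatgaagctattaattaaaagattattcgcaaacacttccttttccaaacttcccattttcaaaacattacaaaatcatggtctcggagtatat
Chil4: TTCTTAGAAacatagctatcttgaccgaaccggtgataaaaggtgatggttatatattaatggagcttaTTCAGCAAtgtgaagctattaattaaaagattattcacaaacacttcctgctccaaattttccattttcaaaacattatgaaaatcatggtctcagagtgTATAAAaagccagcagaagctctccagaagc
Retnla: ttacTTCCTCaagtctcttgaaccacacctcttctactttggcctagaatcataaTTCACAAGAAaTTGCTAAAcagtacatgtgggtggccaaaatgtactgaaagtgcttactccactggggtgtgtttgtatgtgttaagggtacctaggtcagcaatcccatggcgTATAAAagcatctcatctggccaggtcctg
Acod1: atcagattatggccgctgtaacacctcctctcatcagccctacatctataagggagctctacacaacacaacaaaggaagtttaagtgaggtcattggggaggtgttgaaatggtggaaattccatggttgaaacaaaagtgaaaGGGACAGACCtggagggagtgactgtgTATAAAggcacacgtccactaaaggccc
The 250 bases before the start were searched on both strands. In a local alignment of these stretches, Chil3 and Chil4 were identical at 201 of 222 aligned columns (90.5%). Both held the letters of the interferon-type STAT site TTCNNNGAA, which 7.02% of 32851 promoters of the same length hold, beginning 172 bases before the Chil3 start and 200 before the Chil4 start. The printed Chil3 stretch further held the GATA factor letters AGATAA (9.99% of promoters) on the opposite strand, and Chil4 held TTNNGCAA (C/EBP, 9.56%) and TATAAA (12.4%). Retnla held the letters of the STAT6 site (5.85% of promoters) from 145 to 136 bases before its start, with TTNNGCAA and GAGGAA (PU.1, 23.3%) on the opposite strand and TATAAA from 30 bases before the start. Acod1 held the letters of an NF-kB site (45.8% of promoters) from 55 to 46 bases before its start and TATAAA from 28 bases before it. Outside the printed bases, Chil3 held an NF-kB match and Acod1 a GAGGAA. In Retnla the STAT6 and C/EBP letters lie close together without overlap. These matches are letters in a window and were not measured as binding sites.

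In the same build, Arg1 lies at chr10:24915207-24927470, Arg2 at chr12:79130788-79156301, Chil3 at chr3:106147554-106167564, Retnla at chr16:48842609-48844461, Nos2 at chr11:78920787-78960226 and Acod1 at chr14:103047012-103056573.

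All values below are log2 expression values as deposited, so 1 unit is a 2-fold step. Every array shares a lowest value of 2.30, the floor, which holds between 43.6% and 48.3% of its probe sets, and the highest value of the table is 16.02. Differences were fitted with limma over all genes, and a called gene is one with an absolute difference of at least 1 and an adjusted p under 0.05 after Benjamini-Hochberg. The fit of the lineage set tested 12077 genes and that of the panel 11734. Arg1, Arg2, Chil3, Retnla and Acod1 passed the filter on dim genes in both, and Nos2 passed in neither. In sorted bulk samples, fewer expressing cells and less RNA per cell cannot be told apart.

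Some arrays went against what their labels lead one to look for, in markers summed over lists on the linear scale. The basophil and mast cell list was nearly as high in the 4 SMP arrays (log2 of the sum 16.56 to 16.71) as in the 2 basophil arrays (16.73 and 16.79), against 7.58 to 8.38 in cMoP. The Msr1-Ceacam1- arrays carried natural killer cell markers, at 14.50 to 15.40 over 5 genes, and no other array was above 11.71. The neutrophil list (13 of its 15 genes on the array) came to 17.32 on the panel's SatM array from bone marrow and 17.14 on the bone marrow Msr1dull Ceacam1dull array, close to the 17.78 and 17.70 of neutrophils, and to 14.91 and 15.59 on the lineage SatM arrays. The neutrophil receptor gene Cxcr2 was at 2.58 on that panel SatM array and at the floor on both lineage SatM arrays, against 11.94 and 11.32 in neutrophils. Ltf, of the same list, went the other way, at 12.93 on that panel SatM array and 9.03 and 10.14 on the lineage SatM arrays. Neutrophils had Ltf at 14.34 and 14.37. The neutrophil content of the SatM arrays was not tested. Basophils also carried the neutrophil list, at 16.76 and 16.45, with Cxcr2 at 8.53 and 7.47, and SMP had Cxcr2 at 10.14 to 10.86. The lung macrophage array titled MP_BAL also held lung epithelium markers (13.50, with 1 of 8 genes at the floor, against 6.89 on the other lung macrophage array).

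**Figure D1:**
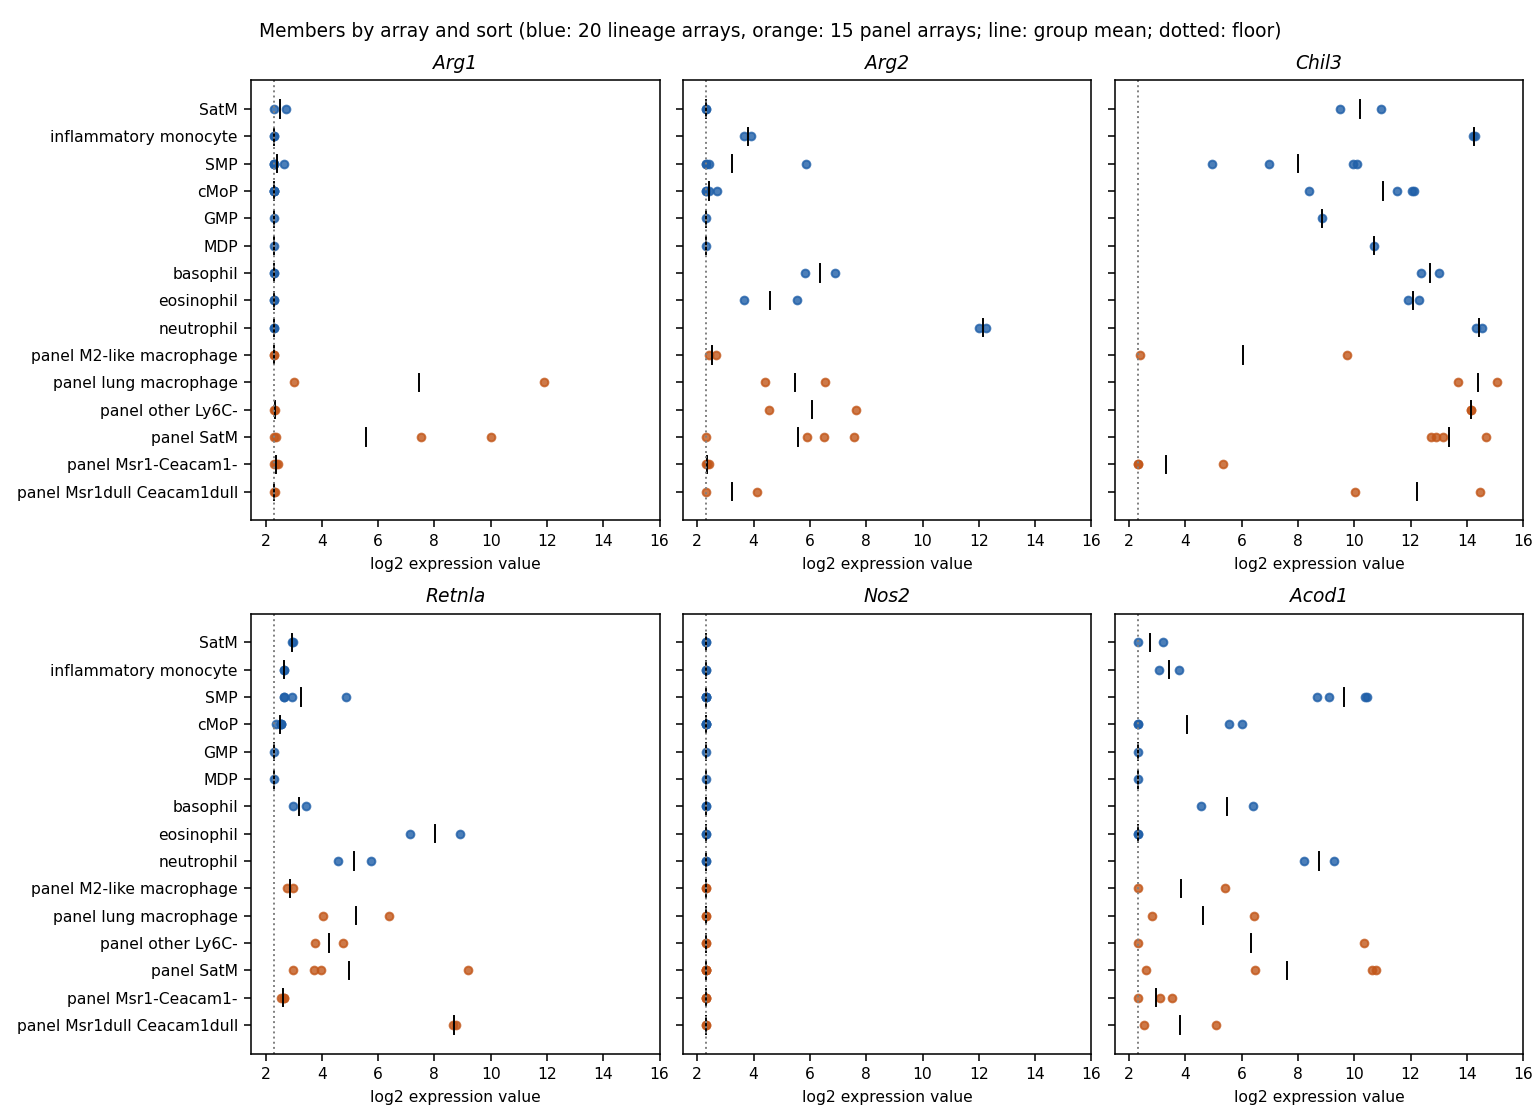
Log2 expression value (x axis) of each of the 6 genes by sort (y axis), 1 point per array, blue for the 20 lineage arrays and orange for the 15 panel arrays, with the group mean as a black line and the floor of 2.30 dotted. Arg2 stands at 12.02 and 12.27 in neutrophils, Nos2 is at the floor on all 35 arrays, and Arg1 leaves the floor by more than 1 unit on 3 arrays.

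Arg1 was close to silent in this collection outside the panel. It lay at the floor on 23 of 35 arrays and was more than 1 unit above it on 3, all from the panel. It measured 11.88 on the lung macrophage array titled F480 posi_BAL, 10 on lung SatM and 7.53 on spleen SatM. The second lung macrophage array, titled MP_BAL, measured 3.01. SatM of bone marrow and blood were at 2.30 and 2.39, and both M2-like macrophage arrays were at the floor. High Arg1 was thus seen on some SatM arrays and on 1 of the 2 lung macrophage arrays, and the other arrays under those names lay near the floor. As the titles of the lung macrophage arrays differ, their gap cannot be read as spread within 1 sort. On the 20 lineage arrays, granulocytes and both monocyte sorts included, the highest value was 2.73, on SatM array 1.

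The alveolar macrophage markers (11 genes on the array) did not follow Arg1 across the lung arrays. Their sum was 15.64 on the MP_BAL array with Arg1 at 3.01, 13.86 on the F480 posi_BAL array with Arg1 at 11.88, 12.85 on lung SatM with Arg1 at 10, and 12.69 on lung Msr1dull Ceacam1dull cells with Arg1 at 2.33. These are 4 arrays, and the relation was not tested.

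Arg2 was highest in neutrophils. Its representative probe set measured 12.27 and 12.02 in spleen neutrophils, and no other array exceeded 7.63. Basophils were at 6.89 and 5.83, and eosinophils at 3.65 and 5.54. Inflammatory monocytes were at 3.92 and 3.67, while lineage SatM, GMP and MDP were at the floor. The 4 cMoP arrays ran from 2.30 to 2.70, and SMP from 2.30 to 2.40 except for 5.87 on numbered SMP array 2. Neutrophils did not overlap any other sort, and each neighbour below them in the order of means, from basophils to other Ly6C- cells, panel SatM and lung macrophages, overlapped the next.

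Within the panel, Arg2 was present in spleen but also beyond it. It measured 7.63 and 4.54 in other Ly6C- cells of spleen and blood. SatM measured 6.49 in spleen, 7.55 in bone marrow, 5.91 in lung and 2.30, the floor, in blood. The 3 Msr1-Ceacam1- arrays (2.30 to 2.41) and the M2-like macrophages (2.66 and 2.40) stayed near the floor. The second Arg2 probe set gave the same order of these sorts, with 12.13 and 11.79 in neutrophils, and correlated with the first at Pearson r = 0.95 over 35 arrays. They disagreed on numbered SMP array 2, where the second probe set gave 2.30, and in eosinophils, where it gave 2.30 and 2.56.

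The neutrophil list was high on several of the arrays with Arg2, namely basophils (16.76 and 16.45), spleen other Ly6C- cells (15.74), spleen SatM (15.44) and the panel's bone marrow SatM (17.32), and low in lung SatM (9.70), which had Arg2 at 5.91. Bone marrow Msr1dull Ceacam1dull cells had a neutrophil sum of 17.14 with Arg2 at 2.32, and eosinophils of 15.80 and 15.65 with Arg2 at 3.65 and 5.54. The part of these markers in the Arg2 values was not tested.

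**Figure D2:**
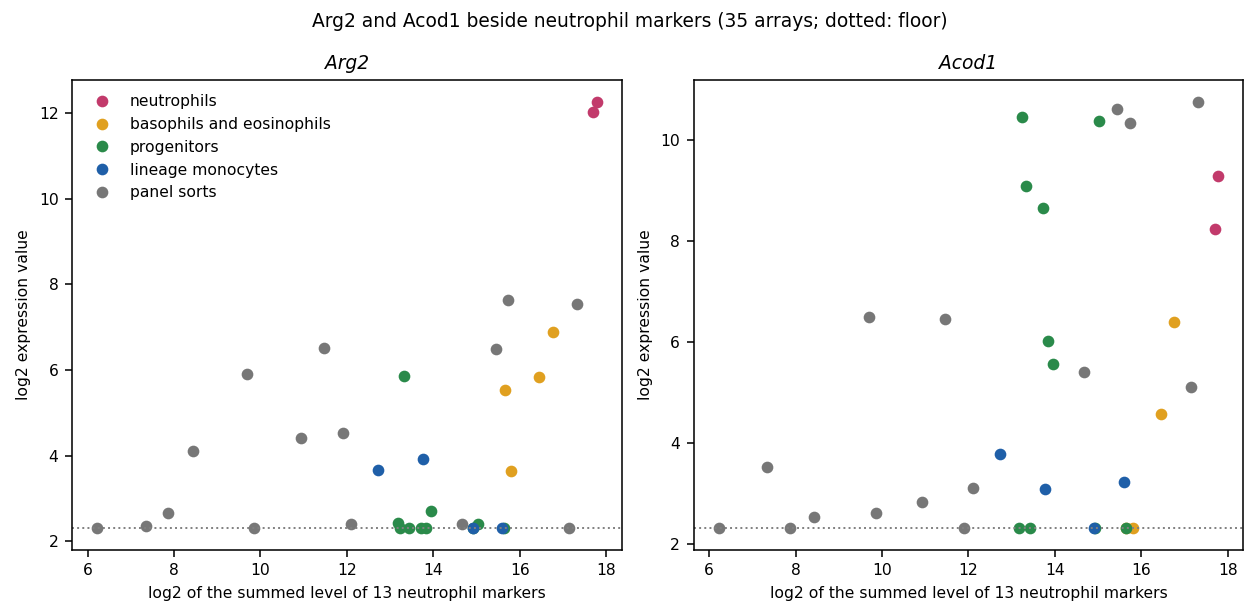
Log2 expression value (y axes) of Arg2 (left) and Acod1 (right) against the log2 of the summed level of 13 neutrophil markers (x axis), 1 point per array, coloured by kind of cell, with the floor dotted. The 2 neutrophil arrays stand apart for Arg2, and for Acod1 the SMP arrays, with marker sums of 13.23 to 15.03, reach 10.45.

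Chil3 was the most widely found of the 6 genes. It was more than 1 unit above the floor on 32 of 35 arrays and above 10 on 24. Neutrophils measured 14.32 and 14.55, lung macrophages 15.06 and 13.70, inflammatory monocytes 14.23 and 14.29, and other Ly6C- cells 14.16 and 14.14. Panel SatM followed with 12.92 in spleen, 14.67 in bone marrow, 12.72 in blood and 13.15 in lung. These 5 sorts head the order of means, and each overlaps the next except inflammatory monocytes and other Ly6C- cells. Basophils (13.01 and 12.36), Msr1dull Ceacam1dull cells (14.46 in bone marrow and 10.03 in lung), eosinophils (11.89 and 12.29), cMoP (8.38 to 12.12), MDP (10.70) and lineage SatM (9.48 and 10.96) came next. SMP spread from 4.96 to 10.11.

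Within the panel, 2 sorts had the lowest mean Chil3, although 1 array of the first was far above the floor. M2-like macrophages measured 2.37 in spleen and 9.74 in bone marrow, where the neutrophil list stood at 7.87 and 14.67. Msr1-Ceacam1- cells measured 2.30 in spleen and in blood and 5.34 in bone marrow. The probe set shared by Chil3 and Chil4 correlated with that of Chil3 at r = 0.931 over 35 arrays, and the probe set of Chil4 alone did not exceed 2.51. They disagreed most on numbered SMP array 2, where the Chil3 probe set measured 9.97 and the shared one 2.91.

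By group mean, Retnla was highest in Msr1dull Ceacam1dull cells and eosinophils. It measured 8.65 and 8.76 in Msr1dull Ceacam1dull cells of bone marrow and lung, and 7.14 and 8.91 in spleen eosinophils, which overlap. A single array of another sort reached that range, spleen SatM at 9.19, against 3.98, 3.74 and 2.98 in SatM of bone marrow, blood and lung. Lung macrophages (6.39 and 4.05) and neutrophils (4.59 and 5.73) were intermediate and overlapped. Basophils (3.43 and 2.97), lineage SatM (2.96 and 2.94), M2-like macrophages (2.77 and 2.96) and inflammatory monocytes (2.64 and 2.64) lay low, none above 3.43, and GMP and MDP were at the floor.

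Eosinophil markers (8 genes) summed to 14.22 in bone marrow Msr1dull Ceacam1dull cells and to 9.50 in those of lung, whose Retnla values were nearly equal. Spleen SatM stood at 9.88 and eosinophils at 16.14 and 16.06. MDP reached 13 with Retnla at the floor. The part of the eosinophil markers in the Retnla values was not tested.

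Nos2 was at the floor on all 35 arrays. It was therefore tested in no comparison, and the arrays give only this bound for it, in macrophages, monocytes and granulocytes alike.

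Acod1 was high in SMP, in neutrophils and in part of the panel. SMP measured 8.66 and 9.09 on the numbered arrays and 10.38 and 10.45 on the WT-titled ones, and neutrophils 9.29 and 8.23. Panel SatM measured 10.62 in spleen and 10.76 in bone marrow, against 6.49 in lung and 2.61 in blood. Other Ly6C- cells measured 10.33 in spleen and were at the floor in blood. In both sorts the spleen array was thus high and the blood array at or near the floor, with 1 array each. Basophils (6.39 and 4.56) lay below all 4 SMP arrays. The lineage SatM arrays were at 2.30 and 3.22, and eosinophils, GMP and MDP at the floor.

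The neutrophil list was higher on the spleen arrays of these sorts (15.44 in SatM and 15.74 in other Ly6C- cells) than on the blood arrays (9.86 and 11.90). It was at 14.91 and 15.59 on the lineage SatM arrays, which had little Acod1, and at 9.70 in lung SatM. Its part in the Acod1 values was not tested.

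**Figure D3:**
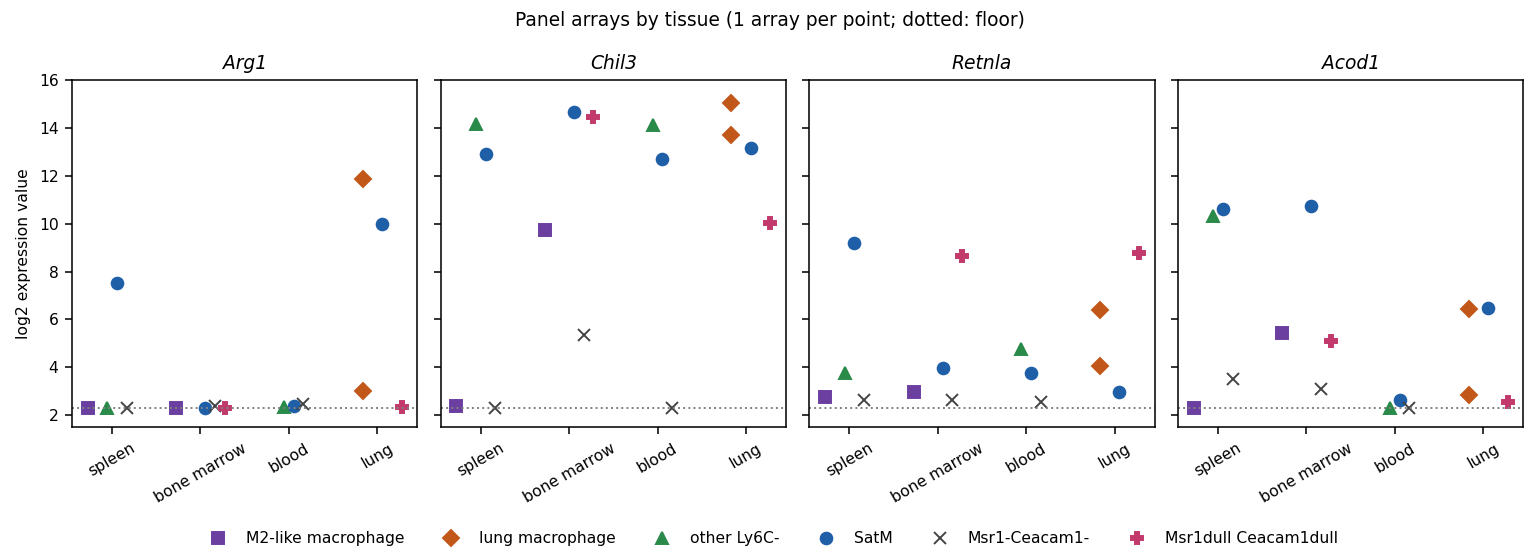
Log2 expression value (y axis) of Arg1, Chil3, Retnla and Acod1 on the 15 panel arrays by tissue (x axis), 1 point per array, with marker shape and colour for the sort and the floor dotted. Arg1 is more than 1 unit above the floor in spleen SatM (7.53), lung SatM (10) and 1 lung macrophage array (11.88), and Acod1 is above 10 in spleen SatM, bone marrow SatM and spleen other Ly6C- cells.

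SatM set against inflammatory monocytes shows how the bone marrow monocyte sorts differ. None of the 5 tested members was called, where 9.34% of all genes were. Chil3 measured 9.48 and 10.96 in SatM and 14.23 and 14.29 in inflammatory monocytes, a difference of -4.04 ± 1.47 (SE, n = 2 each, limma adjusted p = 0.109). The arrays did not overlap, but the difference did not pass the test. This SE holds the spread of all lineage sorts. The SD of Chil3 was 1.04 in SatM and 0.04 in inflammatory monocytes, against 2.5 in SMP and 1.78 in cMoP. None of 14 alternatives called Chil3 here. Arg2 was at the floor in SatM, at least 2.83-fold lower than the mean of inflammatory monocytes (limma adjusted p = 0.405), and Acod1 differed by -0.67 (limma adjusted p = 0.699). Arg1 differed by 0.22 (limma adjusted p = 0.412) and Retnla by 0.31 (limma adjusted p = 0.972). With only the arrays of these 2 sorts in the fit, Arg2 was called (adjusted p = 0.0258).

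The panel's own bone marrow SatM array, at 14.67 for Chil3, 7.55 for Arg2 and 10.76 for Acod1, stood far above both lineage SatM arrays. With it added, the differences were -2.55 for Chil3, 0.25 for Arg2 and 2.00 for Acod1, so that those of Arg2 and Acod1 changed sign, and still none was called. The comparison of members between these monocytes therefore rests on which bone marrow SatM arrays are taken.

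Around the members, alternative activation genes split between the sorts, where 9.34% of all genes were called. Of 18 tested, 2 were higher and 3 lower in SatM, with a median of -0.31 against -0.02 over all genes. Pparg, the lipid-sensing nuclear receptor (4.28, limma adjusted p = 2.03e-07), and Pdcd1lg2, which makes an inhibitory ligand for T cells (4.63, limma adjusted p = 0.00259), rose in SatM, while the scavenger receptor gene Msr1 (-3.89, limma adjusted p = 0.000186) and the mannose receptor gene Mrc1 (-4.69, limma adjusted p = 0.0351) fell. Classical activation genes numbered 2 higher and 3 lower of 16. Il1b rose by 3.77 (limma adjusted p = 0.015), and the interferon-induced chemokine genes Cxcl10 (-5.32, limma adjusted p = 0.00443) and Cxcl9 (SatM at the floor, at least 17.5-fold lower) fell. None of 15 arginine, nitric oxide and polyamine genes and none of 12 citrate and itaconate genes was called. Eosinophil markers differed alongside, at 13.19 and 11.76 in SatM and 5.48 and 5.42 in inflammatory monocytes, as did the neutrophil list, at 14.91 and 15.59 in SatM and 13.76 and 12.72 in inflammatory monocytes. Their part in these values was not tested.

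In SMP against cMoP, the comparison of both named monocyte progenitors, Acod1 rose and Chil3 fell. That is 2 of the 5 tested members, where 35.5% of all genes were called. Acod1 averaged 9.64 ± 0.91 in SMP and 4.04 ± 2.02 in cMoP (SD, n = 4 each), a difference of 5.61 ± 0.48 (SE, limma adjusted p = 1.19e-06). The cMoP arrays were at the floor for both numbered ones and at 5.55 and 6.01 for the WT-titled ones, and none overlapped SMP. Within the WT-titled arrays the difference was 4.64 and within the numbered arrays 6.58, called in each (limma adjusted p = 0.032 and 0.0107). As the numbered cMoP arrays were at the floor, the 6.58 and the 5.61 are lower limits. For this reason no difference between the sets is given.

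Chil3 averaged 8.00 ± 2.5 in SMP and 11.02 ± 1.78 in cMoP (SD, n = 4 each), a difference of -3.02 ± 1.04 (SE, limma adjusted p = 0.0303). The arrays overlapped, since SMP reached 10.11 and cMoP went down to 8.38. The call was lost when any of numbered SMP array 1 (adjusted p = 0.0981), WT-titled SMP array 2 (0.102), numbered cMoP arrays 1 (0.0585) and 2 (0.0757) or WT-titled cMoP array 2 (0.107) was left out, with only SMP and cMoP arrays in the fit (0.162), with no filter on dim genes (0.069), and within the WT-titled arrays (-2.68, adjusted p = 0.554) and the numbered arrays (-3.36, adjusted p = 0.2) alone. Arg2 differed by 0.79 (limma adjusted p = 0.371) and Retnla by 0.75 (limma adjusted p = 0.217), each with 1 SMP array far above the others. Arg1 differed by 0.09 (limma adjusted p = 0.477).

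The other genes of these pathways changed in both directions in SMP. The counts below stand beside the 35.5% of all genes called in this comparison, and no list was tested as a set. Of 18 alternative activation genes, 4 rose and 7 fell (median -0.42 against -0.09 over all genes). Alox15, a lipoxygenase gene, rose by 9.69 (limma adjusted p = 1.77e-09) and the transcription factor gene Egr2 by 5.94 (limma adjusted p = 2.67e-05), while the lectin receptor genes Clec7a (-7.30) and Clec10a (-4.90) fell. Of 16 classical activation genes, 4 rose and 5 fell (median -0.08), with the cytokine gene Il6 higher by 7.97 (limma adjusted p = 7.81e-07), the prostaglandin synthase gene Ptgs2 higher by 3.86, and Tlr2 (-6.27) and Cd40 (-3.65) lower. Of 15 arginine, nitric oxide and polyamine genes, 6 fell and none rose (median -0.48), among them the arginine transporter genes Slc7a7 (-3.23) and Slc7a1 (-1.63), Gch1 (-2.86), which makes the cofactor of nitric oxide synthases, and Oat (-2.44), which uses ornithine. Of 12 citrate and itaconate genes, 4 fell and 1 rose (median -0.75). Il4ra (-2.30) and Il13ra1 (-4.09), receptor chains for interleukins 4 and 13, fell, as did the myeloid factor genes Irf8 (-7.71) and Klf4 (-5.00). The basophil and mast cell list differed alongside, at 16.56 to 16.71 in SMP and 7.58 to 8.38 in cMoP, and its part in these values was not tested.

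In SatM against SMP, which the labels name as the progenitor of SatM, Acod1 was the 1 called member of 5, where 26.8% of all genes were called. It averaged 2.76 ± 0.66 in SatM (n = 2) and 9.64 ± 0.91 in SMP (SD, n = 4), and the fitted difference, which corrects for the WT-titled set, was -5.63 ± 0.63 (SE, limma adjusted p = 1.85e-05). The arrays did not overlap. With the panel's bone marrow SatM array added, which had 10.76, the difference was -2.96 and was not called (adjusted p = 0.2). Chil3 differed by 1.59 (limma adjusted p = 0.449), Arg2 by -1.32 (limma adjusted p = 0.311), Arg1 by 0.08 (limma adjusted p = 0.748) and Retnla by -0.05 (limma adjusted p = 1). In the lists, 11 of 18 receptors and regulators rose and 2 fell (median 2.58 against -0.03 over all genes), among them Il13ra1 (7.29), Klf4 (6.10), Irf8 (5.69) and Ifngr1 (5.11). Of 16 classical activation genes, 6 rose and 2 fell (median 0.99). Tlr2 (7.57) and Il1b (6.22) rose and Ptgs2 (-5.27) fell. Il6 fell to the floor in SatM, where SMP averaged 12.69 (limma adjusted p = 4.83e-06). The basophil and mast cell list differed alongside, at 6.74 and 7.55 in SatM and 16.56 to 16.71 in SMP, and its part in these values was not tested.

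In inflammatory monocytes against cMoP, none of the 5 tested members was called, where 14.9% of all genes were. Chil3 measured 14.23 and 14.29 in inflammatory monocytes, against 8.38, 11.52, 12.05 and 12.12 in cMoP, with no overlap and a fitted difference of 2.60 ± 1.37 (SE, limma adjusted p = 0.252). Arg2 differed by 0.97 (limma adjusted p = 0.586) and Retnla by 0.39 (limma adjusted p = 0.809). With only these arrays in the fit, Arg2 was called (1.44, adjusted p = 0.0171). Acod1 averaged 3.43 in inflammatory monocytes and 4.04 in cMoP, a plain difference of -0.61, while the fit, which corrects for the WT-titled set, gave 0.65 (limma adjusted p = 0.623). Arg1, counted among the 5, was at the floor on all of these arrays, so they hold no difference in it. Of 16 classical activation genes 8 rose and none fell (median 1.90 against -0.01 over all genes), with Cxcl9 at least 17.5-fold above cMoP, where it was at the floor, and Irf1 higher by 1.97 (limma adjusted p = 0.00203). Of 18 alternative activation genes 4 rose and 2 fell (median 0.42), among them Msr1 (3.66), Pparg (2.67) and Cd163 (-4.09). Of 18 receptors and regulators 7 rose and none fell (median 0.88), among them Il13ra1 (2.64). In the arginine list, the polyamine synthesis gene Srm (-3.04) and Slc7a1 (-1.88) fell and Gch1 (1.77) and Sat1 (1.58) rose, in a count of 2 higher and 3 lower of 15.

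**Figure D4:**
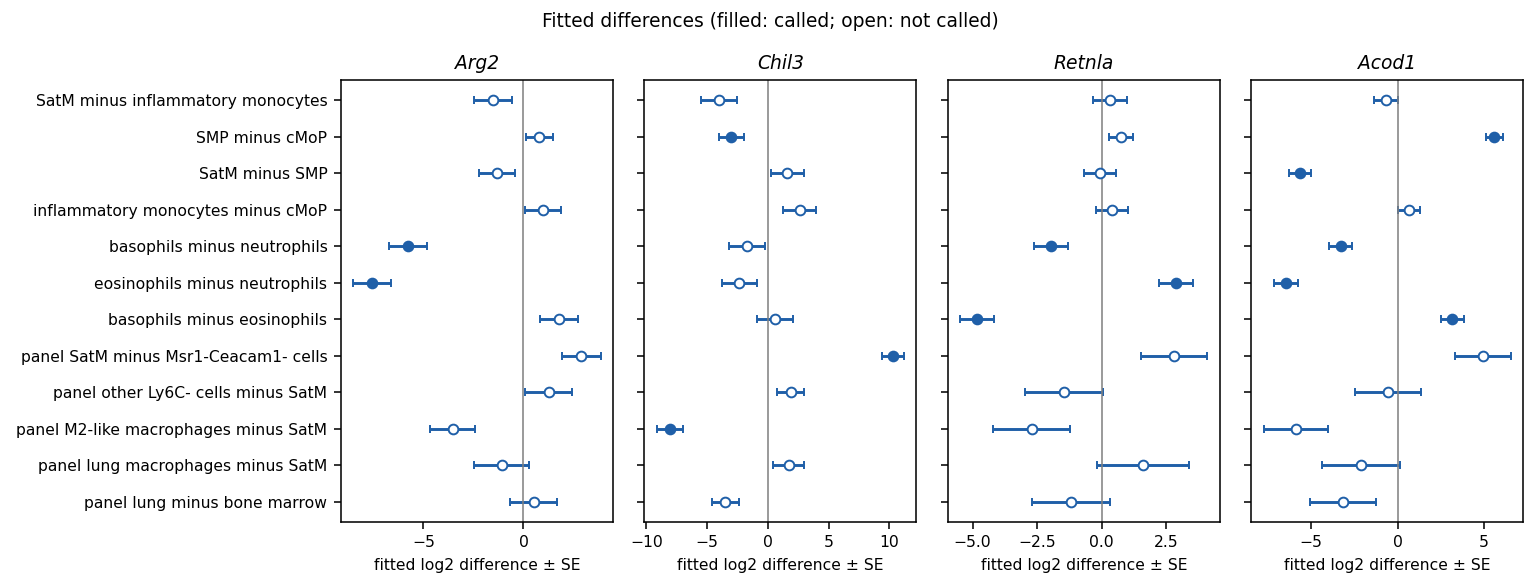
Fitted log2 difference (x axes, points, with its SE as bars) of Arg2, Chil3, Retnla and Acod1 in the 12 comparisons (y axis), filled where called and open where not. Arg2 is lowest against neutrophils (-5.78 in basophils and -7.55 in eosinophils), and the panel Chil3 differences of 10.28 and -8.07 are called.

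Among spleen granulocytes, neutrophils stood out for Arg2 and Acod1 and eosinophils for Retnla. In basophils against neutrophils, 3 of the 5 tested members were called, where 37.4% of all genes were, and all 3 were lower in basophils. Arg2 fell by 5.78 (limma adjusted p = 0.000316), averaging 6.36 ± 0.75 in basophils and 12.14 ± 0.17 in neutrophils (SD, n = 2 each). Acod1 fell by 3.29 (limma adjusted p = 0.00171), averaging 5.47 ± 1.30 in basophils and 8.76 ± 0.75 in neutrophils (SD, n = 2 each), and was not called with only these arrays in the fit (adjusted p = 0.0704). Retnla fell by 1.97 (limma adjusted p = 0.0305), a call that was lost without basophil array 1 (adjusted p = 0.0648), basophil array 2 (0.153) or neutrophil array 2 (0.225), with no filter on dim genes (0.0647) and with only these arrays in the fit (0.0674). Chil3 differed by -1.75 (limma adjusted p = 0.392) and was called with only these arrays in the fit (adjusted p = 0.0285). Arg1 was at the floor on every granulocyte array, so none of the granulocyte comparisons could call it. It is still counted among the 5 tested. The neutrophil list was at 16.76 and 16.45 in basophils and 17.78 and 17.70 in neutrophils, and its part in the basophil values was not tested.

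In eosinophils against neutrophils, the same 3 members were called, where 40.5% of all genes were. Arg2 fell by 7.55 (limma adjusted p = 3.69e-05). Acod1 was at the floor in eosinophils, at least 88.2-fold lower than in neutrophils (limma adjusted p = 8.56e-06). Retnla rose by 2.86 (limma adjusted p = 0.00356), averaging 8.02 ± 1.25 in eosinophils and 5.16 ± 0.81 in neutrophils (SD, n = 2 each), and the call was lost without eosinophil array 2 (1.97, adjusted p = 0.0546) and with only these arrays in the fit (adjusted p = 0.0925). Chil3 differed by -2.35 (limma adjusted p = 0.225) although the arrays did not overlap, and it was called with only these arrays in the fit (adjusted p = 0.0107). Both comparisons share the neutrophil arrays.

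In basophils against eosinophils, 2 of the 5 tested members were called, where 20.6% of all genes were. Retnla fell by 4.82 in basophils (limma adjusted p = 0.000227), with 3.43 and 2.97 in basophils and 7.14 and 8.91 in eosinophils. Acod1 was at least 9.05-fold higher in basophils (limma adjusted p = 0.00459), as eosinophils were at the floor, and the call was lost without basophil array 1 (2.26, adjusted p = 0.0581) and without the WT term (adjusted p = 0.0819). With only these arrays in the fit, neither Retnla (adjusted p = 0.0557) nor Acod1 (adjusted p = 0.0919) was called. Arg2 differed by 1.77 (limma adjusted p = 0.212) on its representative probe set and by 2.38 (limma adjusted p = 0.00528) on the mean of both its probe sets. Chil3 differed by 0.60 (limma adjusted p = 0.897).

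The pathway genes around them differed in part between the granulocytes. Of 18 alternative activation genes, 4 were higher and 3 lower in basophils than in neutrophils (37.4% of all genes called). In eosinophils against neutrophils 2 were higher and 2 lower (40.5%), and in basophils against eosinophils 2 were higher and 1 lower (20.6%). Alox15 rose by 9.68 in basophils and 10.84 in eosinophils against neutrophils (limma adjusted p = 3.74e-08 and 1.52e-08). Of 16 classical activation genes, 1 was higher and 7 lower in basophils than in neutrophils (median -0.96 against 0.01 over all genes), and 1 was higher and 9 lower in eosinophils (median -2.25 against 0.02). The cytokine gene Il1b differed by -7.73 in basophils (limma adjusted p = 1.59e-05) and by -9.83 in eosinophils (limma adjusted p = 2.14e-06), and Il6 rose by 8.92 in basophils. In the arginine list, 6 of 15 were higher and 4 lower in basophils and 6 were higher and 5 lower in eosinophils. The proline and ornithine synthesis gene Aldh18a1 (5.48 in basophils and 6.46 in eosinophils), Srm (4.90 and 6.15) and the arginine transporter gene Slc7a1 (3.31 and 4.32) rose in each against neutrophils. Il4ra was lower in both (-4.83 in basophils and -4.26 in eosinophils). Within the chitinase-like and resistin-like families, Chil1 (-5.07 in basophils and -6.76 in eosinophils) and Retn (-3.03 and -2.79) fell against neutrophils.

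Apart from lung macrophages, each panel sort and tissue had 1 array. The SE and p of the panel comparisons thus measure what the sort and tissue terms leave over, not spread between replicates. In the panel, SatM against Msr1-Ceacam1- cells gave 1 called member of 5, where 10.2% of all genes were called. Chil3 rose by 10.28 ± 0.93 in SatM (SE, limma adjusted p = 0.000647), and the plain differences were 10.62 in spleen, 9.33 in bone marrow and 10.42 in blood. Chil3 was at the floor in Msr1-Ceacam1- cells of spleen and blood, so the spleen and blood differences and the fitted one are lower limits. In those of bone marrow it was at 5.34, above the floor. The call was lost with only these arrays in the fit (adjusted p = 0.0863). Acod1 differed by 4.93 (limma adjusted p = 0.0977), with 7.11 in spleen and 7.66 in bone marrow but 0.32 in blood. Arg2 differed by 2.88 (limma adjusted p = 0.107), with 4.13 in spleen, 5.14 in bone marrow and 0.00 in blood, where both sorts were at the floor. For both genes the blood pair thus differed from the spleen and bone marrow pairs. Without the blood Msr1-Ceacam1- array, Acod1 (7.18, adjusted p = 0.0252) and Arg2 (4.07, adjusted p = 0.0492) were called as well. Retnla (2.81, limma adjusted p = 0.214) and Arg1 (2.30, limma adjusted p = 0.587) were not called. Natural killer cell markers differed alongside, at 6.65 to 8.10 in SatM and 14.50 to 15.40 in Msr1-Ceacam1- cells, with Ncr1 and Eomes at the floor in SatM, and their part in these values was not tested.

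The C/EBP factor genes Cebpb (6.46, limma adjusted p = 0.00157) and Cebpa (5.62, limma adjusted p = 0.0251), the PU.1 gene Spi1 (4.63) and the interferon gamma receptor gene Ifngr2 (3.54) rose in SatM in the same comparison, in a count of 4 higher and 1 lower of 18 receptors and regulators (median 0.61 against -0.06 over all genes). Hmox1, the haem oxygenase gene (7.02), Idh1 (3.24) and Nfe2l2 (2.67) rose among 12 citrate and itaconate genes, of which 3 rose and 1 fell. Over all genes, 10.2% were called.

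M2-like macrophages against SatM gave 1 called member of 5, where 8.31% of all genes were called. Chil3 fell by 8.07 ± 1.08 in M2-like macrophages (SE, limma adjusted p = 0.00442), with a plain difference of -10.55 in spleen and -4.92 in bone marrow. The call was lost with only these arrays in the fit (-7.74, adjusted p = 0.247). Acod1 (-5.88, limma adjusted p = 0.106) and Arg2 (-3.53, limma adjusted p = 0.107) did not pass the test. Arg1 (limma adjusted p = 0.621) was at the floor in both M2-like arrays, against 7.53 in spleen SatM and the floor in bone marrow SatM, and Retnla (limma adjusted p = 0.33) differed by -6.42 in spleen and -1.02 in bone marrow. No member had a higher value in M2-like macrophages than in SatM of the same tissue.

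Other genes of the alternative activation list ran the other way. Of 20 tested, 4 rose and none fell in M2-like macrophages (median 0.48 against 0.03 over all genes), where 8.31% of all genes were called. Cd163, the haemoglobin scavenger receptor gene, rose by 9.36 (limma adjusted p = 0.000993), with 13.39 and 14.16 in M2-like macrophages against 4.45 and 5.95 in SatM of the same tissues. Mrc1 rose by 7.93 (limma adjusted p = 0.0052) and Ppargc1b by 2.83 (limma adjusted p = 0.0124). Mrc1 was at 13.26 and 13.58 in M2-like macrophages, against 6.43 and 6.92 in SatM of the same tissues. High Mrc1 was also seen in lung, at 12.38 on SatM, 12.84 and 12.05 on the lung macrophage arrays and 10.61 on Msr1dull Ceacam1dull cells. The M2-like sort thus carried high Cd163 and Mrc1 with Arg1 at the floor and Retnla at 2.77 and 2.96. The tissue macrophage list stood at 17.11 and 17.39 in it, with none of its 14 genes at the floor, and at 11.32 to 14.56 in panel SatM.

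Neither of the remaining sort comparisons of the panel called a member. In other Ly6C- cells against SatM, 0.0682% of all genes were called (8 of 11734). Chil3 differed by 1.24 in spleen and 1.43 in blood, Acod1 by -0.29 and -0.32, Arg2 by 1.15 and 2.24, Arg1 by -5.22 and -0.07, and Retnla by -5.44 and 1.03. The fitted differences had limma adjusted p of 0.815 to 1. The wide gaps for Arg1 and Retnla came from the spleen SatM array.

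In lung macrophages against SatM, 0.239% of all genes were called. The mean of both lung macrophage arrays less the lung SatM array was 1.23 for Chil3, 2.24 for Retnla, -0.45 for Arg2, -1.85 for Acod1 and -2.56 for Arg1. The lung macrophage arrays themselves differed by more than that for each of the 5 genes, as with Arg1 (3.01 and 11.88) and Acod1 (2.83 and 6.45). These arrays carry different titles, so such gaps may lie between sorts, which was not tested. The fitted differences over all panel arrays were 1.70 for Chil3, 1.60 for Retnla, -1.09 for Arg2, -2.14 for Acod1 and -0.76 for Arg1, with limma adjusted p of 0.794 to 0.985.

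Lung against bone marrow, fitted across the panel sorts, called none of the 5 tested members, where 9.3% of all genes were called. Chil3 differed by -3.50 ± 1.10 (SE, limma adjusted p = 0.0818) and was called without the bone marrow M2-like macrophage array (-3.06, adjusted p = 0.0463). Its plain means ran the other way, at 12.98 in lung and 11.05 in bone marrow. SatM and Msr1dull Ceacam1dull cells are the sorts present in both tissues, and in them Chil3 was lower in lung, at 13.15 and 10.03, against 14.67 and 14.46 in bone marrow. Arg1 differed by 3.62 (limma adjusted p = 0.416), Acod1 by -3.15 (limma adjusted p = 0.323) and Arg2 by 0.51 (limma adjusted p = 0.838). Retnla differed by -1.19 in the fit (limma adjusted p = 0.67) and by 0.99 between the plain means. The neutrophil list differed alongside, at 9.70 and 8.43 in SatM and Msr1dull Ceacam1dull cells of lung and 17.32 and 17.14 in those of bone marrow, and alveolar macrophage markers were at 12.69 to 15.64 on lung arrays and 9.30 to 14.10 on bone marrow arrays. Their part in these values was not tested. Of 20 alternative activation genes 7 rose and none fell in lung (median 2.41 against 0.07 over all genes), among them the chemokine gene Ccl17 (10.20, limma adjusted p = 0.000103) and Il4ra (2.43, limma adjusted p = 0.0246). In the arginine list, Asl, which makes arginine, rose by 1.59 (limma adjusted p = 0.0388), while Odc1 and Azin1, which make and protect the first polyamine enzyme, fell (-1.48 and -1.46).

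Among themselves the members did not move as 1 block. Pearson's r over 35 arrays was 0.52 for Arg2 with Chil3 and 0.51 for Arg2 with Acod1, and 0.08 to 0.38 for every other pair of the 5 genes above the floor, as a description over arrays that share replicates and the authors' normalisation. Of 12657 genes ranked, those most like Arg2 were Scrg1 (0.83), Stfa3 (0.827) and Ankrd22 (0.791). Those most like Chil3 were Gda (0.902), Msrb1 (0.845) and Mcemp1 (0.816). Those most like Retnla were Fgfr1 (0.808), Lypla2 (0.766) and Slc9a3r2 (0.737), and those most like Acod1 were Map2k3 (0.768), Ptgs2 (0.724) and Nlrp3 (0.717). Arg1 and Nos2 were not ranked, since 3 arrays and none lay more than 1 unit above the floor.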

How the data were processed

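Log2 expression values per probe set of 35 Affymetrix arrays, as deposited by the authors, were used. They had been brought to a near-common distribution (array medians 2.31 to 2.39). That the base is 2 was read from their range, and the normalisation method is not given in the sources used here. Of 45101 probe sets, those for 64 controls, 9160 with no symbol and 932 with more than 1 symbol were dropped. Each of 18193 genes took the probe set of highest mean. Genes over the array median on at least 2 arrays of a model were kept. limma 3.58.1 (R 4.3.3, lmFit and eBayes with trend) was fitted to 20 lineage arrays (cell type and WT title, 10 residual degrees of freedom) and to 15 panel arrays (cell type and tissue, 6). The limma fit was tested on simulated data. Array data have no depth. Precision is set by how many arrays a group has. Motifs were searched in RefSeq promoters with Python 3.11.15, and local alignment used biopython 1.88. The members, the gene and marker lists and the comparisons were chosen with earlier results of these data known. The text names every member in every comparison, and from each list up to 4 called genes of largest difference without overlap between arrays. Alternatives covered normalisation, filters, probe sets, samples in the fit, variance prior, left-out arrays, a replicate block and the model terms.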

Additional observations from a re-analysis of the deposited data

Results flagged for a closer look

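In groups of at least 4 arrays, an array was singled out when its gap to the nearest other, over the range of the group, passed Dixon's critical value. Of 14 groups with a range, 6 held such an array. Chance gives about 1 in 20 where values vary freely, a rate that does not hold where arrays share the floor or another value, as for Arg1 in SMP and Retnla in cMoP. Nor does it hold where a group mixes tissues (panel SatM) or WT-titled and numbered arrays (SMP and cMoP). The 6 therefore cannot be set against that rate. In SMP these were Arg1 on numbered array 1 (2.67, the others at the floor), Arg2 on numbered array 2 (5.87, the others at most 2.40) and Retnla on WT-titled array 1 (4.85, the others at most 2.93). In cMoP they were Chil3 on WT-titled array 1 (8.38, the others at least 11.52) and Retnla on numbered array 2 (2.36, the others at 2.56). In panel SatM it was Retnla in spleen (9.19, the others at most 3.98). The second Arg2 probe set gave 2.30 on numbered SMP array 2.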

How the results depend on the processing

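Counts of called members were recomputed 175 times, of which 156 stayed within 1.5 times the reported count and 19 did not. No called difference of a single member changed sign. Of 868 recomputed differences, called or not in the main fit, 24 lost and 8 gained a call. Only those called in the main fit could lose one, so 868 is not the base for the losses. Chil3 in SMP minus cMoP lost its call in 9 of 19 alternatives, and Retnla in basophils minus neutrophils in 5 of 13. With only the arrays of the compared groups, the count was 1 in SatM minus inflammatory monocytes, SMP minus cMoP and inflammatory monocytes minus cMoP, and 0 in basophils minus eosinophils, panel SatM minus Msr1-Ceacam1- cells and panel M2-like macrophages minus SatM. In the panel that fit called 0 genes in each comparison, against 2379, 1833, 2581, 739 and 1135 at an unadjusted p under 0.05. SMP minus cMoP had a count of 1 without a filter on dim genes, with the WT-titled arrays only and with the numbered arrays only, and of 1 to 2 when single arrays were left out. Leaving out single arrays gave 1 to 2 in basophils minus eosinophils, 1 to 3 in panel SatM minus Msr1-Ceacam1- cells and 0 to 1 in panel lung minus bone marrow. Basophils minus eosinophils had 1 without the WT term. SatM minus SMP had 0 with the panel's bone marrow SatM array added, an alternative chosen after seeing the data, as were the WT-titled and numbered sets. The cause was not tested. Counts over all genes also moved. Without single arrays they ran from 549 to 922 against 1128 in SatM minus inflammatory monocytes, 1014 to 1830 against 1795 in inflammatory monocytes minus cMoP, 1556 to 2188 against 2493 in basophils minus eosinophils, 437 to 1435 against 1200 in panel SatM minus Msr1-Ceacam1- cells, 2 to 17 against 8 in other Ly6C- cells minus SatM, 398 to 1298 against 975 in M2-like macrophages minus SatM, 15 to 1276 against 28 in lung macrophages minus SatM (the highest without lung SatM) and 365 to 2201 against 1091 in lung minus bone marrow. With no filter on dim genes the 5 panel comparisons called 732, 4, 555, 16 and 471, and with the filter at the 60th percentile the second and the fourth of them called 2 and 13. Without the tissue term M2-like macrophages minus SatM called 579 and lung macrophages minus SatM 91, and without the WT term SatM minus inflammatory monocytes called 679. With only the compared arrays SatM minus SMP called 1394, against 3234, and basophils minus eosinophils 1538. SMP minus cMoP called 4285, against 741 in the WT-titled and 2051 in the numbered arrays.

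Same-numbered arrays did not deviate together throughout (r of -0.045 to 0.233), so the numbers were not taken as pairs. With a replicate block the counts were 0, 2, 1, 0, 3, 3 and 2 in the 7 lineage comparisons, and no call changed. No paired analysis was possible for the panel because its titles carry no replicate numbers, and tissue is a term of its fit. With 2 arrays in most groups and 43.6% to 48.3% of probe sets at the floor, differences at low signal were limited by the floor.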
